A study of Mus musculus with 8 samples.

Results

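The genes described here write, read or remove DNA methylation, apart from *Mbd3*, which encodes a subunit of the NuRD deacetylase and remodelling complex. They were chosen as a named set of 10 genes, *Dnmt1*, *Dnmt3a*, *Dnmt3b*, *Dnmt3l*, *Uhrf1*, *Tet1*, *Tet2*, *Tet3*, *Tdg* and *Mbd3*, and their probes were found by RefSeq accession. Of the 10 genes, 9 had a probe and all 9 were tested, among 13653 genes tested and 19751 genes named on the array. No probe was matched to *Tet1*, so its expression was not analysed here and only its promoter window was searched. The 9 genes had 18 probes, of which 17 were tested.

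RNA of VV3 ESCs was hybridised to Agilent arrays for mouse in one colour, with 1 array per sample. These are male mouse ESCs that carry a Vasa::Venus transgene, a fluorescent reporter of *Vasa* (*Ddx4*), and they were grown on a feeder layer of mitomycin C-treated STO cells, in medium with serum and LIF. *L3mbtl2*-KD ESCs (4 samples) received siRNA against *L3mbtl2*, and control ESCs (4 samples) received the non-silencing AllStars siRNA. Per the methods, the *L3mbtl2*-KD samples are cells sorted by FACS as Vasa-positive, and they were set against VV3 ESCs with the control siRNA, for which it is not clear from the methods whether they were sorted too. Sorting on the reporter and the siRNA thus cannot be told apart. The labels call the samples biological replicates. The 75th percentile of spot intensity was 791 to 1038 in *L3mbtl2*-KD ESCs and 854 to 1024 in control ESCs, and 59.5 to 63.9% and 62.0 to 66.6% of spots were well above background. The number of arrays limits the precision. RNA was from bulk cells, in which fewer cells of a type and less RNA per cell cannot be told apart. The groups lay on 2 slides, with both groups on each slide but at different positions, so position and siRNA cannot be told apart.

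In mammals, DNMT1 copies CpG methylation onto the new strand after replication, guided by UHRF1, which binds hemimethylated DNA. DNMT3A and DNMT3B set new methylation, and DNMT3L, which has no catalytic activity of its own, stimulates them. TET enzymes oxidise 5-methylcytosine, TDG excises the more oxidised bases for repair, and MBD3 is a subunit of the NuRD deacetylase and remodelling complex. Promoter methylation is known for keeping many germ-line genes silent in somatic and pluripotent cells.

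*Dnmt3l* was the member that rose in *L3mbtl2*-KD ESCs, by 1.98-fold. On their brightest probes, *Tet2* and *Tdg* were lower in every same-numbered pair of samples and *Dnmt3b* higher in every pair, but these 3 did not pass the threshold in the fit without a block and did pass with the replicate number as a block. The share of all genes on the same side in every pair is not given here. *Dnmt1*, *Uhrf1*, *Dnmt3a*, *Tet3* and *Mbd3* differed by less than the spread between samples, as did *Dnmt3b*. *Dnmt3a* was also lower in every pair, but did not pass with the block. Changes are fitted log2 differences, *L3mbtl2*-KD minus control, and a call is a p under 0.05 after Benjamini-Hochberg adjustment over all probes tested. With 1 probe per gene, the brightest, 1 of 9 members was higher and 0 were lower at an adjusted p under 0.05 in limma. Over all genes tested, 9.35% were higher and 10.8% lower by the same rule (1277 and 1472 genes), and leaving out control replicate 3 lowered these to 718 and 907 of the 13653 genes, *L3mbtl2*-KD replicate 3 to 822 and 1016, and *L3mbtl2*-KD replicate 4 to 774 and 993. At an unadjusted p under 0.05 in limma, 1 member was higher and 2 were lower (*Tet2* and *Tdg*), where 16.9% of all genes were higher and 18.8% lower by that rule. An unmoderated one-way test of each probe gave the same numbers of members before adjustment and 1 and 0 after it, against 2300 and 2431 of all genes before and 1072 and 1156 after it. With the replicate number as a block, 2 members were higher and 2 lower, against 22.2% and 23.8% of all genes. Neither the labels nor the methods pair the samples, and the pairing behind this block was inferred from the values. The number of members past 2-fold at an adjusted p under 0.05 was 0 in limma, against 2.49% of genes higher and 3.21% lower by that rule on at least 1 probe. The median log2 change of the 9 members was -0.062, against -0.011 over all genes, and their median absolute change was 0.086 against 0.21.

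The siRNA target and the reporter gene were measured first. The log2 intensity of *L3mbtl2*, relative to the 75th percentile of the array as for all log2 intensities here, was -1.45, -1.26, -1.58 and -1.73 in *L3mbtl2*-KD replicates 1 to 4 and 0.27, -0.18, -0.21 and -0.31 in control replicates 1 to 4. The groups did not overlap, and 0.379 of the control intensity was left (log2 change -1.40, adjusted p = 0.000945 from limma). *Ddx4*, the gene behind the reporter, was between 3.62 and 3.87 in *L3mbtl2*-KD ESCs and between 0.85 and 0.99 in control ESCs (log2 change 2.83, limma adjusted p = 4.88e-06). The *L3mbtl2*-KD cells were sorted as positive for this reporter, so the difference in *Ddx4* is not independent evidence. The cells had the markers of ESCs: all 13 naive pluripotency genes tested were well above background on all 8 arrays, among them *Pou5f1*, at 4.35 to 4.43 in *L3mbtl2*-KD ESCs and 4.45 to 4.67 in control ESCs.

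**Figure D1:**
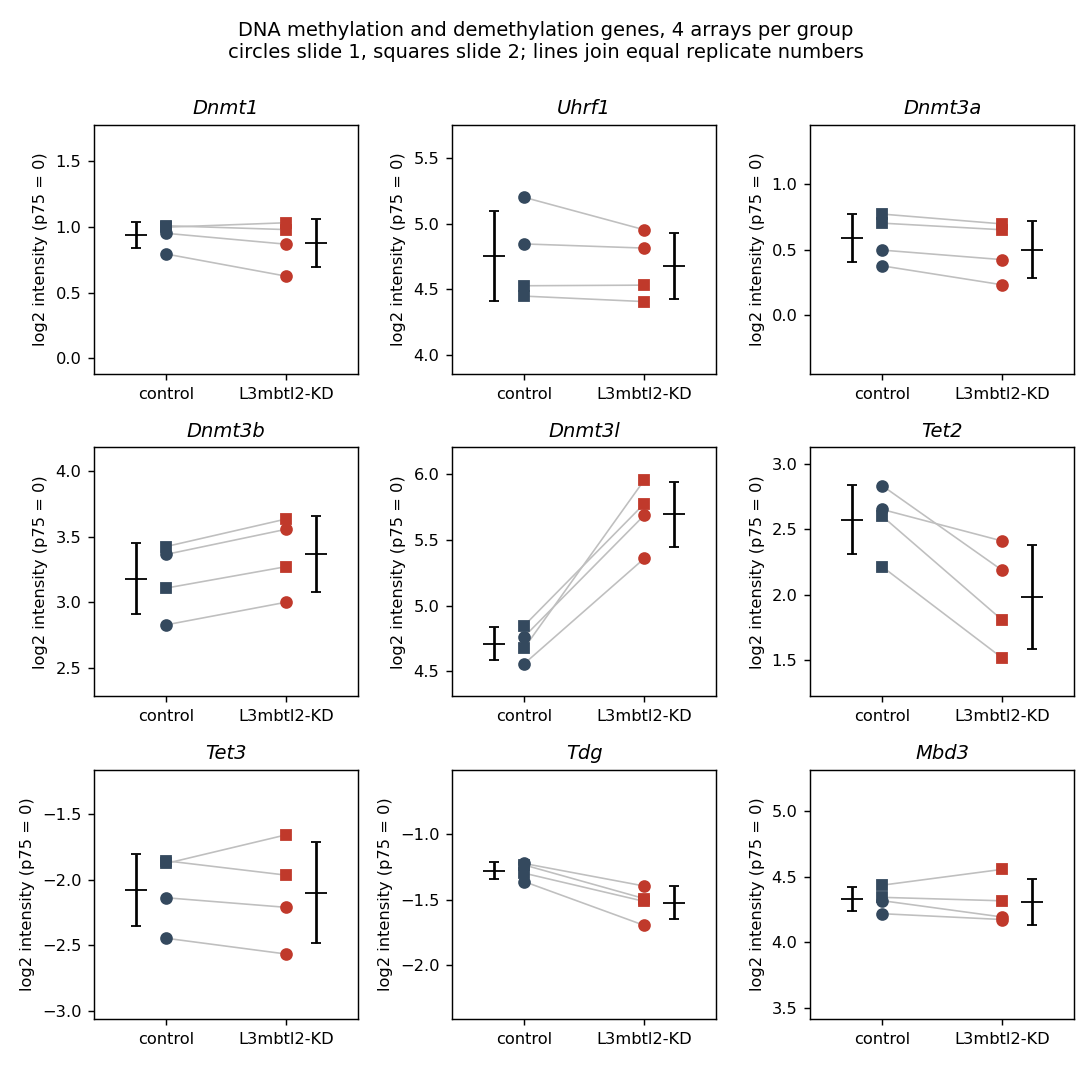
Log2 intensity, with the 75th percentile of the array at 0, of the brightest probe of the 9 members in 4 control and 4 *L3mbtl2*-KD arrays; bars are mean and SD, circles lie on slide 1 and squares on slide 2, and lines join samples with the same replicate number. Each panel spans the same range; the groups are apart for *Dnmt3l* (5.36 to 5.96 against 4.56 to 4.85) and for *Tdg* (-1.70 to -1.40 against -1.36 to -1.23), and overlap for the other 7 genes.

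Neither maintenance gene differed between the groups beyond the spread of the samples. *Dnmt1* (NM_010066), the maintenance methyltransferase, was at 0.87, 0.62, 0.98 and 1.03 in *L3mbtl2*-KD replicates 1 to 4 and at 0.95, 0.79, 1.01 and 1.0 in control replicates 1 to 4. Replicate 2 was the lowest of both groups, and the groups overlapped. The mean was 0.88 ± 0.18 (SD, n = 4) against 0.94 ± 0.10 (SD, n = 4), a log2 change of -0.062 with a 95% confidence interval from -0.31 to 0.19 (adjusted p = 0.738 from limma). It was -0.13 on slide 1 and 0.0023 on slide 2, and 0.022 without *L3mbtl2*-KD replicate 2. *Uhrf1*, whose product brings DNMT1 to hemimethylated CpGs, had a probe for NM_010931 at 4.95, 4.82, 4.41 and 4.53 in *L3mbtl2*-KD ESCs and 5.20, 4.85, 4.45 and 4.53 in control ESCs. Both groups were higher on slide 1, which holds replicates 1 and 2, than on slide 2. The log2 change was -0.079 (95% confidence interval -0.51 to 0.36, limma adjusted p = 0.813), with -0.14 on slide 1 and -0.019 on slide 2, and it was 0.070 without control replicate 1 and 0.011 without *L3mbtl2*-KD replicate 3. Its other probe, for NM_001111079, gave -0.11 (adjusted p = 0.716), with -0.10 and -0.12 on the slides and 0.047 without control replicate 1, which lay at -0.76 while the other control samples averaged -1.39.

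The promoter windows of these maintenance genes are shown because they share an E2F-like motif. RefSeq start sites of GRCm38.p6 were used, with 250 bases before and 50 after the start, and all 10 members had at least 1 window. Motifs were searched on both strands: CACGTG, the E-box that MAX binds, and the E2F-like GGCGGGAA and TTTCGCGC (TTCCCGCC and GCGCGAAA on the other strand). They are found in 7.15%, 2.19% and 0.323% of all 32851 windows. The third *Dnmt1* window (chr9:20952574-20952873, minus strand) and the second *Uhrf1* window (chr17:56304063-56304362, plus strand) hold TTTCGCGC or its reverse complement, in capitals. Each has 33 CpGs, against a median of 7 over all windows. A match describes letters, not a bound site, and all windows are written 5′ to 3′ on the strand of the gene.
*Dnmt1* window: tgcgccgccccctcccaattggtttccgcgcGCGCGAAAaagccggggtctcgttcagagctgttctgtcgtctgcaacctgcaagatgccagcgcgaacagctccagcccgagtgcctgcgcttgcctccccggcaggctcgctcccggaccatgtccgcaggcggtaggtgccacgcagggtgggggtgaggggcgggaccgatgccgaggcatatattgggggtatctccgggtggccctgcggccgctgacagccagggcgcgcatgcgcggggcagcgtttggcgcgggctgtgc
*Uhrf1* window: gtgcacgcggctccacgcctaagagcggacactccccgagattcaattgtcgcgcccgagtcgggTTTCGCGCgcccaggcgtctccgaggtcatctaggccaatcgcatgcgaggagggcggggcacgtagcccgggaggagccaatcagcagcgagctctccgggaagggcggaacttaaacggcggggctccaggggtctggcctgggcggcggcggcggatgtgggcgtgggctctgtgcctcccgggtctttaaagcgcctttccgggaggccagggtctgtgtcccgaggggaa

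Of the de novo genes, *Dnmt3l* rose, while *Dnmt3b* and *Dnmt3a* showed no difference beyond the spread. *Dnmt3b* was slightly higher and *Dnmt3a* slightly lower in each pair. *Dnmt3a* (NM_007872), a de novo methyltransferase, was at 0.23, 0.43, 0.70 and 0.65 in *L3mbtl2*-KD replicates 1 to 4 and 0.38, 0.50, 0.77 and 0.70 in control replicates 1 to 4. *L3mbtl2*-KD was the lower sample of each pair, by 0.050 to 0.14, while both groups spread over more than that. Its log2 change was -0.086 (95% confidence interval -0.40 to 0.22, adjusted p = 0.705 from limma, and 0.163 with the replicate block), with -0.11 on slide 1 and -0.063 on slide 2, and it was 0.0040 without *L3mbtl2*-KD replicate 1.

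*Dnmt3b* (NM_001003961), the other de novo methyltransferase, had 3 probes. The brightest was at 3.56, 3.0, 3.27 and 3.63 in *L3mbtl2*-KD replicates 1 to 4 and at 3.36, 2.83, 3.11 and 3.42 in control replicates 1 to 4. Replicates 1 and 4 were high and replicate 2 low in both groups, so the groups overlapped although the *L3mbtl2*-KD sample was the higher one in 4 of 4 pairs. The differences of the pairs were 0.19, 0.17, 0.16 and 0.21. The log2 change was 0.18 (standard error 0.18, adjusted p = 0.517 from limma), and with the replicate number as a block its standard error was 0.040 and its adjusted p 0.0206. The other probes were at 0.22 each (0.13 with normexp background correction for the dimmer one), with adjusted p of 0.515 and 0.523 without the block and 0.0387 and 0.0284 with it. All 3 values correspond to 1.14- to 1.16-fold, and the difference was 0.18 on slide 1 and 0.19 on slide 2 for the brightest probe. Leaving out 1 sample moved the brightest probe between 0.067 and 0.31 and the others between 0.077 and 0.38 and between 0.071 and 0.37. Over all alternatives the adjusted p of the brightest probe lay between 0.0206 and 0.838.

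*Dnmt3l* (NM_019448), the cofactor of the de novo enzymes, had only 1 probe, so no other probe could be set beside it. It was at 5.69, 5.36, 5.78 and 5.96 in *L3mbtl2*-KD replicates 1 to 4. In control replicates 1 to 4 it was at 4.76, 4.56, 4.85 and 4.67. Every *L3mbtl2*-KD sample lay above every control sample, and all 4 pairs had the higher value in *L3mbtl2*-KD ESCs, by 0.80 to 1.28. Over all genes tested, 12.6% had every *L3mbtl2*-KD array above every control array. The mean was 5.70 ± 0.25 (SD, n = 4) against 4.71 ± 0.12 (SD, n = 4), a log2 change of 0.99 with a 95% confidence interval from 0.68 to 1.29. Its adjusted p was 0.00244 in limma, and a two-sided exact permutation test gave p = 0.0286, the smallest that 4 against 4 samples allow. The change was thus 1.98-fold, just under the 2-fold threshold, and 6.14% of all genes tested changed more.

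The 2 slides gave 0.87 and 1.11 for *Dnmt3l*. Each slide holds 2 samples per group. Within slide 1 alone the adjusted p was 0.164, and 0 genes of the array passed there in limma, against 1516 within slide 2. With both slides it was 0.00134 with the slide as a block and 0.00231 with the replicate block. The change was past 2-fold on slide 2, without control replicate 1 (1.0), without control replicate 3 (1.03) and without *L3mbtl2*-KD replicate 2 (1.10). Over all alternatives the adjusted p lay between 0.000924 and 0.164. Markers of feeder fibroblasts and primitive endoderm were lower in the same *L3mbtl2*-KD samples, with summed intensities 0.546 and 0.391 of the control mean, and their part in the change of *Dnmt3l* was not tested.

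RefSeq lists 3 start sites of *Dnmt3l*, on the plus strand of chromosome 10, and the windows are shown because this member rose. They are chr10:78042037-78042336, chr10:78049592-78049891 and chr10:78055085-78055384, with 6, 4 and 3 CpGs, below the median of 7 over all windows. The second holds CACGTG, in capitals, at bases 207 to 212. The array probe does not tell which start site was used.
*Dnmt3l* window 1: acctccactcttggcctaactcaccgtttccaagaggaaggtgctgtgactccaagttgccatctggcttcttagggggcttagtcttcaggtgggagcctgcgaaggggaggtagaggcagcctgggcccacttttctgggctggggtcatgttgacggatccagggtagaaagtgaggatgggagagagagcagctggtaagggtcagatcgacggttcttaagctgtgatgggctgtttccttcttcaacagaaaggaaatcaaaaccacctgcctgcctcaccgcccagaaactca
*Dnmt3l* window 2: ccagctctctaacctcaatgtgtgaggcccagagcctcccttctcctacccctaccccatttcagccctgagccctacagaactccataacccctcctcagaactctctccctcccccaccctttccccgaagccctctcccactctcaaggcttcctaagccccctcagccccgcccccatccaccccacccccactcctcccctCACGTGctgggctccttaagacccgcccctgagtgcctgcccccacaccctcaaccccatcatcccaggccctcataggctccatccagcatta
*Dnmt3l* window 3: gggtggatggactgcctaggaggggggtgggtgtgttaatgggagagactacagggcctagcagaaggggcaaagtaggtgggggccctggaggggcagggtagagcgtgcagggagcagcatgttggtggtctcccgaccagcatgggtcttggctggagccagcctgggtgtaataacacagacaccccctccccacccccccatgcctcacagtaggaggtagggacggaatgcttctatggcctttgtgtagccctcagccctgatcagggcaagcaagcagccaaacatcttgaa

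On the demethylation side, *Tet2* and *Tdg* were lower without passing the threshold of the unblocked fit, and *Tet3* did not differ beyond its spread. *Tet2* (NM_001040400), a 5-methylcytosine dioxygenase, was at 2.18, 2.41, 1.80 and 1.52 in *L3mbtl2*-KD replicates 1 to 4 on its brightest probe. Control replicates 1 to 4 were at 2.83, 2.65, 2.60 and 2.21. Replicates 3 and 4, on slide 2, were the lower ones in both groups, and *L3mbtl2*-KD replicate 2 lay above control replicate 4, so the groups overlapped. Within each pair the *L3mbtl2*-KD sample was lower, by 0.24 to 0.79. The mean was 1.98 ± 0.40 (SD, n = 4) against 2.57 ± 0.26 (SD, n = 4).

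The log2 change of *Tet2* was -0.59 (95% confidence interval -1.07 to -0.12, 0.662-fold), with an adjusted p of 0.0837 in limma and p = 0.0571 in the two-sided exact permutation test. Its second probe, at 0.63, 0.62, 0.24 and -0.38 against 1.30, 1.22, 1.0 and 0.62, gave -0.76, or 0.591-fold (limma adjusted p = 0.0638). With the replicate block the adjusted p was 0.0111 for the first probe and 0.00301 for the second. With the slide as a block it was 0.0169 and 0.0125. The change was -0.44 on slide 1 and -0.75 on slide 2 for the first probe, and -0.64 and -0.88 for the second. Without *L3mbtl2*-KD replicate 2 the first probe was at -0.74 with an adjusted p of 0.0427, while the 7 other samples left out in turn did not bring it past the threshold. The adjusted p over all alternatives was 0.0111 to 0.327 for this probe and 0.00301 to 0.149 for the second. The second probe also passed with normexp background correction (-0.72, adjusted p = 0.0401) and with an intensity trend in eBayes (0.0474).

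*Tdg* (NM_172552), the glycosylase that removes oxidised 5-methylcytosine, was at -1.40, -1.70, -1.51 and -1.49 in *L3mbtl2*-KD replicates 1 to 4 and at -1.23, -1.36, -1.30 and -1.24 in control replicates 1 to 4. Every *L3mbtl2*-KD sample lay below every control sample. Of all genes tested, 13.8% were separated in this direction. The log2 change was -0.24 (95% confidence interval -0.45 to -0.043, 0.844-fold, adjusted p = 0.0904 from limma; two-sided exact permutation p = 0.0286). Its 2 further probes gave -0.21 and -0.18, with overlapping groups and adjusted p of 0.161 and 0.358 in limma. The last was at -0.052 with normexp background correction and between -0.25 and -0.11 when 1 sample was left out. Over all alternatives this last probe lay between -0.25 and -0.025. With the replicate block, the adjusted p of the 3 probes was 0.0152, 0.0156 and 0.0775, and over all alternatives that of the brightest probe lay between 0.0152 and 0.562. The changes within the slides were -0.25 and -0.24 for the brightest probe.

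*Tet3* (NM_183138), another dioxygenase of this family, was measured well by 1 of its 3 probes. It was at -2.57, -2.21, -1.96 and -1.66 in *L3mbtl2*-KD replicates 1 to 4 and -2.45, -2.14, -1.86 and -1.88 in control replicates 1 to 4. The groups overlapped, with *L3mbtl2*-KD ESCs reaching further at both ends, and the log2 change was -0.021 (95% confidence interval -0.50 to 0.46, limma adjusted p = 0.958), with the sign turned to 0.027 under normexp background correction and 0.047 under quantile normalization. It was -0.097 on slide 1 and 0.055 on slide 2, and 0.13 without *L3mbtl2*-KD replicate 1, 0.016 without *L3mbtl2*-KD replicate 2, 0.053 without control replicate 3 and 0.047 without control replicate 4. A second probe was well above background in 4 *L3mbtl2*-KD and 2 control samples and gave 0.36 (adjusted p = 0.516), or 0.13 with normexp, from 0.84 on slide 1 and -0.12 on slide 2. Leaving out 1 sample moved it between 0.079 and 0.67. The last probe was well above background on 1 of 8 arrays and was not tested.

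The promoter windows of the genes that were lower are shown beside those of *Dnmt3l*. That of *Tet2* (chr3:133544341-133544640, minus strand) has 57 CpGs, as many as or more than 99.9% of all windows, and holds no searched motif. That of *Tdg* (chr10:82629588-82629887, plus strand) has 26 CpGs and holds CACGTG at bases 223 to 228, in capitals.
*Tet2* window: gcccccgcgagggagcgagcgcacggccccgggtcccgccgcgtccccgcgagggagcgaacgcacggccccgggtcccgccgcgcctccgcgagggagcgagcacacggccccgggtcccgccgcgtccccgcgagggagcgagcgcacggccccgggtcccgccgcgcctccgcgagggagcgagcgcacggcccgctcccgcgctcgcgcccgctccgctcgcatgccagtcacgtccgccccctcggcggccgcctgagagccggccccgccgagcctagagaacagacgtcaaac
*Tdg* window: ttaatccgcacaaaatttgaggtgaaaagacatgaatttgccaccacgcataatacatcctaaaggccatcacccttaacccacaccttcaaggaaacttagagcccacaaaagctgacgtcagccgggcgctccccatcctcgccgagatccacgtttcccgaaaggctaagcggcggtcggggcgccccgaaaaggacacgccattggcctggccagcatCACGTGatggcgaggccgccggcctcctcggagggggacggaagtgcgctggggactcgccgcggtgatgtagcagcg
Over the 17 windows of the 10 members, CACGTG was found for 3 genes (*Dnmt3l*, *Tdg* and *Dnmt3a*), GGCGGGAA for 1 (*Uhrf1*) and TTTCGCGC for 2 (*Dnmt1* and *Uhrf1*), where 8.09%, 2.52% and 0.374% of all 27025 genes have a window with them. TTTCGCGC was also found for 3 of 14 S phase genes with a window, so it does not set the members apart from those. The window that holds CACGTG thus belongs to a member that rose, to one that was lower and to one without a difference beyond its spread.

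*Mbd3* (NM_013595), the NuRD subunit, was at 4.19, 4.17, 4.31 and 4.55 in *L3mbtl2*-KD replicates 1 to 4 and at 4.32, 4.22, 4.34 and 4.43 in control replicates 1 to 4. Replicate 4 was the highest and replicate 2 the lowest of both groups. Its log2 change was -0.019 (95% confidence interval -0.26 to 0.22, adjusted p = 0.924 from limma) and -0.013 on its other probe (95% confidence interval -0.19 to 0.16, adjusted p = 0.925). The first probe was at -0.085 on slide 1 and 0.047 on slide 2, and at 0.020 without *L3mbtl2*-KD replicate 1, 0.027 without *L3mbtl2*-KD replicate 2 and 0.017 without control replicate 4. The second was at 0.018 with normexp, 0.025 on slide 2, 0.019 without control replicate 1 and 0.011 without *L3mbtl2*-KD replicate 2.

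**Figure D2:**
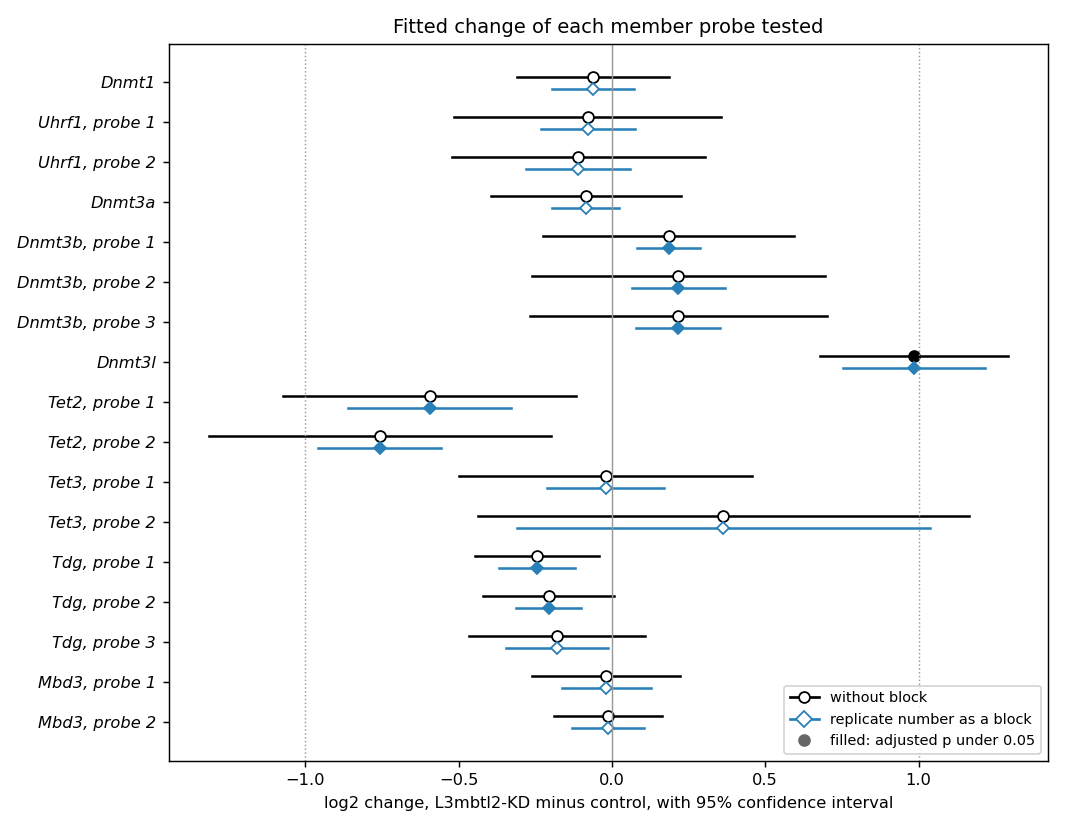
Fitted log2 change, *L3mbtl2*-KD minus control, of the 17 member probes tested, with 95% confidence intervals without a block (circles) and with the replicate number as a block (diamonds); filled symbols have an adjusted p under 0.05 and dotted lines mark 2-fold. *Dnmt3l* (0.99) is filled in both fits, and 3 probes of *Dnmt3b*, 2 of *Tet2* and 2 of *Tdg* are filled with the block.

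Lists of related genes were counted next, beside 9.35% of all genes higher and 10.8% lower in limma. With the replicate block these shares were 22.2% and 23.8%, and they apply to every list below. The partners of maintenance and de novo methylation come first. Of 16 genes tested, 2 rose and 0 fell in limma (4 and 1 at an unadjusted p under 0.05, 5 and 1 with the replicate block, and 1 and 0 in the adjusted one-way test), with a median log2 change of 0.14. *Dppa3*, which is known to keep UHRF1 off chromatin, was at -1.19, -0.35, -0.77 and -1.02 in *L3mbtl2*-KD replicates 1 to 4 and at -3.76, -2.23, -3.30 and -3.81 in control replicates 1 to 4. These groups were far apart (log2 change 2.44, or 5.43-fold, adjusted p = 0.00302 from limma), with a smaller log2 change of 1.85 under normexp (adjusted p = 0.001). *Kdm1b*, the H3K4 demethylase needed for methylation of imprinted genes in oocytes, rose by 0.41 (adjusted p = 0.0396), a call lost without any 1 sample other than *L3mbtl2*-KD replicate 1 (0.34 to 0.45, adjusted p 0.0566 to 0.098). *Trdmt1*, a tRNA methyltransferase, had the lowest value of the list (-0.34, adjusted p = 0.106), was lower in 4 of 4 pairs and passed with the replicate block (0.00662).

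A list of 9 genes holds readers of methylated CpGs and 2 relatives, *Mbd5* and *Mbd6*, whose products carry a similar domain and are known not to bind methylated DNA. In limma 1 gene of the list fell and 0 rose. *Mbd6* fell by 0.38 on the log2 scale (adjusted p = 0.0105), while *Mbd5* had the highest value (0.66, adjusted p = 0.0757). *Mbd5* passed with normexp at a smaller value (0.39, adjusted p = 0.0158), with the replicate block (0.0227) and without control replicate 1 (0.79, adjusted p = 0.0471). At an unadjusted p under 0.05, 2 were higher and 1 lower in limma, and the adjusted one-way test gave 1 and 1. With the replicate block 3 were higher and 2 lower, and the median change was -0.055. Of 5 readers of unmethylated CpGs, *Fbxl19* fell by 0.26 (adjusted p = 0.0499), a call lost with normexp (-0.21, adjusted p = 0.093) and without any 1 of the 8 samples (adjusted p 0.056 to 0.116). No other gene of this list passed in limma, at an unadjusted p under 0.05 0 were higher and 1 lower, and the adjusted one-way test gave the same numbers, as did the replicate block. *Cxxc1* had the highest value (0.092, adjusted p = 0.783), with -0.0084 without control replicate 2 and -0.028 without *L3mbtl2*-KD replicate 4. The median of the list was -0.092, and it was 0.040 without control replicate 1 and -0.0084 without control replicate 2.

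In the NuRD complex, to which MBD3 belongs, 13 other subunits were tested. *Gatad2a* rose by 0.70 (adjusted p = 0.00685 in limma) and the deacetylase gene *Hdac2* by 0.36 (adjusted p = 0.0131), and *Chd5*, a remodelling ATPase, fell by 0.77 (adjusted p = 0.0324). The call of *Chd5* was lost without *L3mbtl2*-KD replicate 1, 3 or 4 or control replicate 1 or 2 (-0.81 to -0.63, adjusted p 0.0547 to 0.0813). The median change was 0.079, and the replicate block gave 3 higher and 2 lower.

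Genes around the TET reaction were counted beside 9.35% of all genes higher and 10.8% lower in limma. The replicate block gave 22.2% and 23.8% of all genes. Of 12 cofactor and regulator genes, 2 fell and 0 rose in limma, with a median change of -0.16. At an unadjusted p under 0.05, 0 were higher and 2 lower, the adjusted one-way test gave 0 and 0, and the replicate block 0 and 3. *Cxxc5*, a CXXC-domain protein known to interact with TET2, fell by 0.56 on the log2 scale (adjusted p = 0.0329), while *Glud1* had the highest value (0.16, adjusted p = 0.195). *Cxxc5* passed without control replicate 1 or *L3mbtl2*-KD replicate 3 but not without any 1 of the other samples (-0.58 to -0.46, adjusted p 0.0557 to 0.0892).

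Base excision repair acts downstream of TDG, and deaminase family genes were listed with it. Of 21 genes tested, 1 rose and 4 fell in limma, against 9.35% and 10.8% of all genes. With the replicate block, 4 were higher and 10 lower, against 22.2% and 23.8% of all genes. The median of the list was -0.13. The glycosylase genes *Smug1* (-0.66, adjusted p = 0.0044) and *Neil3* (-0.88, adjusted p = 0.0252) and the deaminase family genes *Apobec1* (-0.81, adjusted p = 0.0254) and *Apobec2* (-0.93, adjusted p = 0.0493) fell. *Apobec2* was well above background in 3 of 4 *L3mbtl2*-KD samples, so it entered the test only through the control samples. With normexp it was at -0.24 (adjusted p = 0.224). Its call was also lost with quantile normalization (-0.74, adjusted p = 0.0921), with no filter on dim probes (0.108), with the intensity trend (0.0508), in the adjusted one-way test (0.108) and without any 1 sample other than *L3mbtl2*-KD replicate 2 or control replicate 4 (-1.01 to -0.72, adjusted p 0.0784 to 0.114). *Apobec1* did not pass without control replicate 2, 3 or 4 or *L3mbtl2*-KD replicate 4 (-0.79 to -0.75, adjusted p 0.0626 to 0.0739). *Neil3* did not pass without *L3mbtl2*-KD replicate 3 (-0.85, adjusted p = 0.0647) or 4 (-0.80, adjusted p = 0.0685).

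In the cycle that supplies the methyl donor S-adenosylmethionine, 1 gene rose and 1 fell of 16 tested, with 1 higher and 7 lower with the replicate block and a median of -0.17. *Mat2a*, which makes S-adenosylmethionine, was at 4.66, 4.0, 4.44 and 4.77 in *L3mbtl2*-KD replicates 1 to 4 and at 3.78, 3.38, 3.49 and 3.96 in control replicates 1 to 4. The lowest *L3mbtl2*-KD sample was just above the highest control sample, and the log2 change was 0.81 (1.76-fold, adjusted p = 0.0223 from limma). *Mat2a* did not pass without *L3mbtl2*-KD replicate 1, 3 or 4 or control replicate 2 or 3 (0.71 to 0.82, adjusted p 0.0521 to 0.0661). *Gldc*, of the glycine cleavage system, fell by 0.46 (adjusted p = 0.0186, and 0.0551 and 0.0511 without control replicate 3 or 4, at -0.45 and -0.42), and *Tdh* had the lowest value (-0.50, adjusted p = 0.276). *Tdh* was lower in 4 of 4 pairs and passed with the replicate block (0.0173), and leaving out 1 sample moved it between -0.68 and -0.24.

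S phase genes were listed because *Dnmt1* and *Uhrf1* are known to be expressed in dividing cells. Of 18 tested, 1 fell and 0 rose in limma, with a median of -0.057. *Mcm3*, of the replicative helicase, fell by 0.38 (adjusted p = 0.0351), a call kept without control replicate 2 and lost without any 1 of the other samples (-0.41 to -0.32, adjusted p 0.0513 to 0.0863). *Pcna* had the highest value (0.17, adjusted p = 0.339, and 0.12 to 0.24 when 1 sample was left out), was higher in 4 of 4 pairs and passed with the replicate block (0.0426). At an unadjusted p under 0.05, 0 were higher and 6 lower, the adjusted one-way test gave 0 and 2, and the replicate block 1 and 6. Their summed intensity was 304.7 to 354.6 in *L3mbtl2*-KD ESCs and 319.1 to 400.9 in control ESCs, with *Mcm6* brightest. The groups overlapped, and the *L3mbtl2*-KD sample had the lower sum in 4 of 4 same-numbered pairs.

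**Figure D3:**
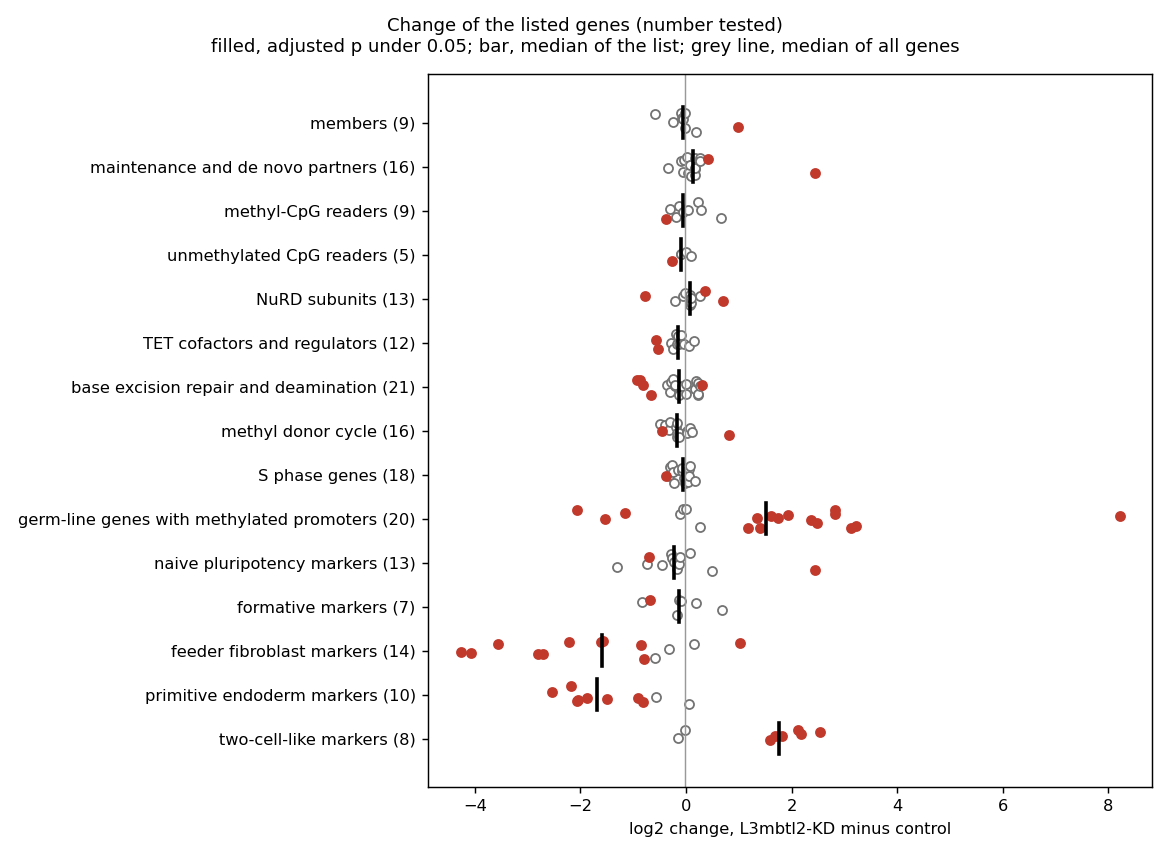
Log2 change, *L3mbtl2*-KD minus control, of every listed gene tested on its brightest probe; filled points have an adjusted p under 0.05 in limma, black bars are list medians and the grey line is the median of all genes (-0.011). Lists of the methylation pathway have medians between -0.17 and 0.14, whereas germ-line genes (1.51), two-cell-like markers (1.76), feeder fibroblast markers (-1.59, or -0.82 with normexp) and primitive endoderm markers (-1.69, or -0.78 with normexp) lie away from 0.

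Most germ-line genes with promoters known to be methylated rose, and a few fell. Of 20 tested, 13 rose and 3 fell in limma, all 16 by more than 2-fold, with a median log2 change of 1.51, or 1.37 with *Asz1* at its bound, and the replicate block gave 14 and 3. Among the genes that rose were *Tex101* (8.21, adjusted p = 4.88e-06), *Tdrkh* (3.21), *Ddx4*, *Dpep3* (2.82) and *Mael* (2.48). *Asz1* did not clear background on a single control array, so its place among them is not given, and its rise was at least 2.51-fold (log2 0.83 with normexp). For this bound, which holds for the scanner's background subtraction, the mean of the bright group was set against the higher of 2 signals on each dim array, that of the dim probe and that of the dimmest probe to clear background. *Dpep3* was above background in 2 control samples and at 1.41 with normexp. Both *Asz1* and *Dpep3* passed the filter on dim probes only through the *L3mbtl2*-KD samples, so their rise is not independent evidence. The 3 genes that fell were *Fkbp6* (-2.06), *Syce1* (-1.54) and *Hormad1* (-1.17), named after their values were seen. The list holds the reporter gene itself, and the study is about such genes, so its direction is not independent evidence.

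The promoter windows of 20 germ-line genes give a comparison for those of *Dnmt3l* and *Tdg*. Of these genes, 11 have CACGTG and 3 GGCGGGAA in a window, where 8.09% and 2.52% of all genes have them. The windows of *Ddx4* (chr13:112652261-112652560, minus strand, 38 CpGs) and *Mael* (chr1:166238695-166238994, minus strand, 24 CpGs), both among the genes that rose, are shown with motifs in capitals, CACGTG in both and GGCGGGAA in *Ddx4*. The share of genes with CACGTG was thus 11 of 20 here and 3 of 10 among the members. The windows below were chosen because they hold CACGTG. Whether it is more frequent in the germ-line genes that rose than in the others was not tested.
*Ddx4* window: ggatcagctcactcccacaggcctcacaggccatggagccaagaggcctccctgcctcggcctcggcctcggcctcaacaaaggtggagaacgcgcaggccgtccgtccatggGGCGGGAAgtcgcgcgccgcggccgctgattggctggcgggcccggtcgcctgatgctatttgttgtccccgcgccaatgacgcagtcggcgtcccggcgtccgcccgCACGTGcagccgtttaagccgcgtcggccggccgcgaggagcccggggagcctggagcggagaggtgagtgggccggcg
*Mael* window: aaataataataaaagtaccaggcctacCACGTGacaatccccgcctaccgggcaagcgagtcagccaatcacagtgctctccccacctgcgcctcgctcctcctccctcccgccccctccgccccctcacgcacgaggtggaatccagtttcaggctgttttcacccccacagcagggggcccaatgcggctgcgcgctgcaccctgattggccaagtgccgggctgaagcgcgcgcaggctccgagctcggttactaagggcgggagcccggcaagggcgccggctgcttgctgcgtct

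Markers of other cells and states moved with the groups. Of 14 feeder fibroblast markers tested, 10 fell and 1 rose in limma. Of the 14, 11 were well above background on all arrays. *Dcn*, *Col3a1* and *Thbs1*, counted among the 10, passed the filter on dim probes only through the control samples. Their fall is thus not independent evidence. The median log2 change of the list was -1.59, but -0.82 with normexp background correction and -0.86 on probes above background on all arrays. The one that rose was *Loxl1* (1.01, adjusted p = 0.000968), named after its value was seen. *Col1a2* (-2.81), *Acta2* (-2.72) and *Col1a1* (-2.22) fell, and *Thbs1* fell too (-3.56, but -1.37 with normexp, adjusted p = 0.00671). *Thbs1* was well above background in 1 *L3mbtl2*-KD sample, so its size is uncertain. *Dcn* and *Col3a1* cleared background on no *L3mbtl2*-KD array. *Dcn* was at least 12.3-fold lower there, and for *Col3a1* the bound was at least 7.92-fold lower. With normexp in place of the scanner's subtraction, which these bounds need, the log2 changes were -1.88 and -1.55. *Lum* and *Postn* were too dim to be tested. The summed intensity of the 14 genes, with the 75th percentile of each array at 1, was 12.5, 11, 14 and 14.4 in *L3mbtl2*-KD replicates 1 to 4 and 17.3, 23.9, 24.8 and 29.0 in control replicates 1 to 4, with *Vim* the brightest probe. Control replicate 1 was nearest to the *L3mbtl2*-KD samples, and the groups did not overlap.

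Of 10 primitive endoderm markers tested, 8 fell and 0 rose in limma (9 and 0 at an unadjusted p under 0.05 and with the replicate block, and 8 and 0 in the adjusted one-way test; median -1.69, or -1.41 with *Foxa2* at its bound of at least 2.48-fold lower). Of the 10, 7 were well above background on all arrays. *Foxa2*, *Dab2* and *Sox17*, counted among the 8, passed the filter on dim probes only through the control samples. Their fall is thus not independent evidence. The median of the list was -0.78 with normexp and -0.92 on probes above background on all arrays, and *Foxa2* did not pass with normexp (-0.41, adjusted p = 0.0763). *Lama1* (-2.18), *Col4a1* (-1.87), *Pdgfra* (-1.50), *Sox17* (-2.07, above background in 3 *L3mbtl2*-KD samples) and *Dab2* (-2.53, in 1) were among the markers that fell. With normexp *Pdgfra* was at -0.80, *Sox17* at -1.10 and *Dab2* at -0.95, so the size of the fall of such dim genes depends on how background is taken off. The summed intensity was 7.62 to 12 in *L3mbtl2*-KD ESCs and 21.8 to 27.8 in control ESCs, with *Lama1* brightest. Of 8 two-cell-like markers, 6 rose, among them *Usp17la* (2.53), *Zscan4c* (2.18), *Tcstv1* (2.12), *Tcstv3* (1.82) and *Tdpoz4* (1.70, but 0.67 with normexp, and above background in 1 control sample), while 0 fell in limma, at an unadjusted p under 0.05 or in the adjusted one-way test, which called 3 higher. *Tdpoz4* entered the test only through the *L3mbtl2*-KD samples. It did not pass without *L3mbtl2*-KD replicate 1, 2 or 3 or control replicate 2, 3 or 4 (1.33 to 1.82, adjusted p 0.0624 to 0.0872). Several of the two-cell-like markers belong to families of similar copies that a probe may not separate. Whether these shifts have a part in the values of *Dnmt3l*, *Tet2*, *Tdg* or *Dnmt3b* was not tested.

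Pluripotency markers were counted beside 9.35% of all genes higher and 10.8% lower in limma. With the replicate block these shares were 22.2% and 23.8%. Of 13 naive markers, *Dppa3* rose, *Klf4* fell by 0.70 on the log2 scale (adjusted p = 0.0274, and 0.0692, 0.0679 and 0.0709 without control replicate 3 or *L3mbtl2*-KD replicate 3 or 4, at -0.70, -0.69 and -0.61) and the median was -0.23, with 2 higher and 4 lower under the replicate block. *Nanog* had the lowest value (-1.32, adjusted p = 0.0962, or -0.69 with normexp, adjusted p = 0.1), from -4.57, -3.93, -4.13 and -2.51 in *L3mbtl2*-KD replicates 1 to 4 and -2.89, -1.38, -2.87 and -2.73 in control replicates 1 to 4, where *L3mbtl2*-KD replicate 4 lay above 3 control samples. Without that sample it was at -1.74 (adjusted p = 0.0271), and control replicate 2 stood above the other control samples. The summed intensity of the naive markers was 79.5 to 103.5 in *L3mbtl2*-KD ESCs and 84.4 to 125.8 in control ESCs, with *Esrrb* brightest, and the *L3mbtl2*-KD sample had the lower sum in 4 of 4 pairs while the groups overlapped. Of 7 formative markers, a list that includes *Dnmt3a* and *Dnmt3b*, 1 fell and 0 rose in limma (2 and 0 at an unadjusted p under 0.05, 0 and 0 in the adjusted one-way test), with a median of -0.13. *Pou3f1* fell by 0.68 (adjusted p = 0.0301), a call kept without control replicate 2 or *L3mbtl2*-KD replicate 3 and lost without any 1 of the others (-0.69 to -0.56, adjusted p 0.0567 to 0.0759). *Sall2* had the lowest value (-0.83, adjusted p = 0.0606, and 0.0477, 0.0227 and 0.0476 with the slide block, the replicate block and the intensity trend, or -0.63 with normexp, adjusted p = 0.0473) and *Lef1* the highest (0.67, adjusted p = 0.154). *Lef1* was higher in 4 of 4 pairs and passed with the replicate block (0.01), and leaving out 1 sample moved it between 0.46 and 0.89. The replicate block gave 2 higher and 2 lower.

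**Figure D4:**
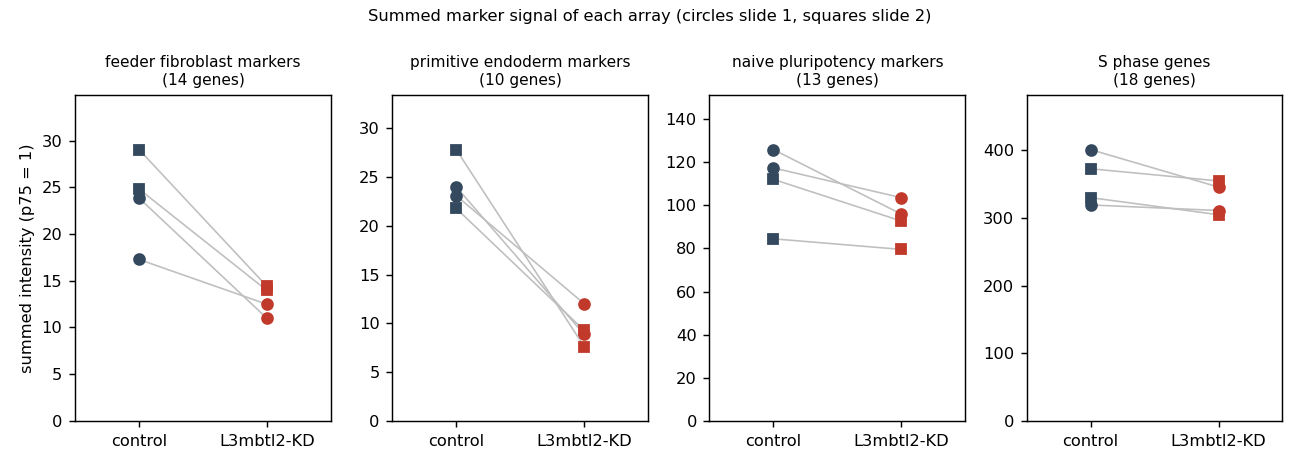
Summed intensity of the brightest tested probes of 4 gene lists in each array, with the 75th percentile of the array at 1 and each axis starting at 0; circles lie on slide 1, squares on slide 2, and lines join equal replicate numbers. *L3mbtl2*-KD samples lie below all control samples for feeder fibroblast markers (11 to 14.4 against 17.3 to 29.0) and primitive endoderm markers (7.62 to 12 against 21.8 to 27.8), and overlap with them for naive pluripotency and S phase genes, where the *L3mbtl2*-KD sample is the lower one in 4 of 4 pairs.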

How the data were processed

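Deposited scanner values of 8 one-colour arrays were used, as background-subtracted intensity per the file headers. The table the authors deposited is in log2, shifted to the 75th percentile and centred on the probe median. Its column medians were -0.022, 0.022, 0.051 and -0.020 in control replicates 1 to 4 and -0.040, 0.015, -0.059 and 0.079 in *L3mbtl2*-KD replicates 1 to 4, and it served as an alternative. Intensities were put on the log2 scale, the 75th percentile of each array was set to 0, and spots of a probe were averaged. Of 39429 probes, 26055 were matched to a symbol by RefSeq accession, and 23525 were tested, those that the scanner put well above background on all arrays of 1 group or of both, with limma 3.58.1 in R 4.3.3 and Benjamini-Hochberg adjustment (85 had a missing array). The brightest tested probe stood for a gene. Exact permutation tests were two-sided. Members and lists were chosen with earlier results of these data known. *Dppa3*, *Mbd4* and *Prdm14* are each in 2 lists. Of each list, up to 6 genes of largest change among those called are named, and the highest and lowest where fewer passed. Some genes that this rule takes are counted in their lists and not reported by name here. Deviations from the group mean correlated at 0.38 to 0.58 between groups for equal replicate numbers and at -0.44 to 0.25 for different ones, so pairing was inferred from the values. Alternatives were normexp (offset 50, on median spot intensities), quantile normalization, the authors' table, other filters, slide or replicate blocks, each slide alone, an intensity trend, a one-way test, other probes for a gene, a 1.5-fold threshold and leaving out each sample. Promoter sequences are from RefSeq. Expression of *Tet1* and protein sequences were not analysed here.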

Additional observations from a re-analysis of the deposited data

Results flagged for a closer look

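In 8 of 140 groups of 4 samples, 1 sample stood far from the others, where chance gives about 7. The values below are log2 intensities, and the ratio is the gap to the nearest sample over the range of the group. The second *Uhrf1* probe was at -0.76 in control replicate 1, with the other control samples at a mean of -1.39 (ratio 0.905). *Mbd6* was at 2.34 in control replicate 2, against 2.23 (0.850). *Hdac2* was at -2.64 in control replicate 3, against -2.55 (0.877). *Smug1* was at -1.88 in *L3mbtl2*-KD replicate 1, against -1.66 (0.841). *Cxxc5* was at 0.57 in control replicate 1, against 1.03 (0.884). *Nanog* was at -1.38 in control replicate 2, against -2.83 (0.894). *Dab2* was at -4.41 in *L3mbtl2*-KD replicate 1, against -5.53 (0.903). *Sox17* was at -2.74 in control replicate 3, against -2.51 (0.865).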

How the results depend on the processing

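The rise of *Dnmt3l* kept its direction in all 20 alternatives and its call in 19, within slide 1 being the exception. Members called higher numbered 2 with the replicate block and 0 within slide 1. Members called lower numbered 1 with the slide block, 2 with the replicate block, 2 in the unadjusted one-way test and 0 to 1 when a sample was left out. Members past 2-fold numbered 1 within slide 2, 1 at a 1.5-fold threshold and 0 to 1 when a sample was left out. The replicate block changed the calls of *Dnmt3b*, *Tet2* and *Tdg* and of no other member. Small changes turned sign: within slide 2 *Dnmt1* was at 0.0023, *Tet3* at 0.055 and, on its second probe, -0.12, and *Mbd3* at 0.047 and 0.025; with normexp *Tet3* was at 0.027 and the second *Mbd3* probe at 0.018; with quantile normalization *Tet3* was at 0.047. As the mean of its tested probes *Tet3* was at 0.17. Leaving out a sample gave ranges of -0.11 to 0.022 for *Dnmt1*, -0.16 to 0.0040 for *Dnmt3a*, -0.18 to 0.070 and -0.22 to 0.047 for the *Uhrf1* probes, -0.17 to 0.13 and 0.079 to 0.67 for *Tet3*, 0.067 to 0.31 for the brightest *Dnmt3b* probe, -0.10 to 0.027 and -0.040 to 0.019 for *Mbd3*, and -0.028 to 0.23 for *Cxxc1*. The median of unmethylated CpG readers was 0.00086 within slide 2 and -0.12 to 0.040 when a sample was left out. That of germ-line genes was 1.31 with normexp and 1.35 within slide 1. That of feeder markers was -0.82 with normexp, -1.21 with no filter and -0.86 on probes above background on all arrays. That of endoderm markers was -0.78 with normexp, -0.92 on probes above background on all arrays, -1.33 within slide 1 and -1.98 within slide 2. The calls of *Kdm1b*, *Chd5*, *Neil3*, *Apobec1*, *Cxxc5*, *Mat2a*, *Klf4*, *Pou3f1* and *Tdpoz4* were lost with no filter on dim probes and in the adjusted one-way test (adjusted p 0.0561 to 0.0948). Those of *Gldc* (0.0511), *Fbxl19* (0.121) and *Mcm3* (0.0868) were lost with no filter, and that of *Tcstv3* (0.0573) in the one-way test. The cause was not tested. Of all genes, 1693 were called with no filter, 6282 with the replicate block, 4731 in the unadjusted one-way test, 1516 within slide 2 and 0 within slide 1, each with 2 samples a group. Probes could not be chosen by the gene name column, which the files lack, and that alternative was not run. Dim probes limit what can be told of *Tet3*.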
